A study of Mus musculus with 6 samples.

Results

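Expression of 42 autophagy and mitophagy genes was examined in common dendritic cell progenitors (CDPs), the progenitors in bone marrow from which dendritic cells develop. The genes were taken by symbol from the per-library tables, which together list 16135 genes, and all 42 were found. Cells came from the bone marrow of wildtype C57BL/6 mice of 6 to 8 weeks and were separated by flow cytometry on CD115, the receptor encoded by Csf1r, and the surface protein Ly6C. The sort gave a CD115+Ly6C- subset, a CD115+Ly6C+ subset and a CD115-Ly6C- subset, for which the labels name no treatment, with 2 libraries of polyadenylated RNA each. Whether the 2 libraries of a subset stem from different mice, sorts or pools of mice is not in the labels. Each p-value therefore measures the spread between these libraries only, which may be technical.

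Autophagy delivers cytoplasm and organelles to the lysosome inside a double-membraned vesicle, the autophagosome. The ULK1 kinase complex starts the process, a class III phosphatidylinositol 3-kinase complex marks the forming membrane with the lipid PI3P, ATG9 and ATG2 bring in lipid, and 2 ubiquitin-like conjugation systems attach proteins of the ATG8 family to it. Cargo receptors bind ATG8 proteins on one side and the cargo on the other, and mitophagy is the form in which the cargo is a mitochondrion. In dendritic cells the pathway is known for delivering material for presentation on MHC class II.

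The libraries held between 17961541 and 19450329 expected counts, with 13307 to 14127 genes with reads each. Levels are given below as the deposited FPKM (fragments per kilobase of transcript per 1e6 fragments), always with replicate 1 before replicate 2. Statements that libraries lay above or below others use FPKM, while log2 differences come from TMM-scaled counts. The CDP markers summed to 1456 to 1654 FPKM over 10 genes, of which Irf8 gave the largest share, at 819.43 to 1006.99 FPKM. The CDP markers differed between the subsets at an edgeR adjusted p under 0.05. In CD115-Ly6C- against CD115+Ly6C+, 4 of 10 were higher and 5 lower (40.0% and 50.0%, against 20.1% and 19.2% of all genes tested). In either direction, 5 of 10 differed between CD115-Ly6C- and CD115+Ly6C- (50.0%, against 15.2%). Between CD115+Ly6C+ and CD115+Ly6C-, 6 of 10 differed (60.0%, against 9.6%). Flt3 was at 187.45 and 187.33 FPKM in the CD115+Ly6C-, 101.82 and 91.1 in the CD115+Ly6C+ and 355.84 and 323.1 in the CD115-Ly6C- libraries. Csf1r, which encodes CD115, was at 109.78 and 137.76, 142.4 and 133.35, and 62.76 and 74.23 FPKM in that order, so its transcript was also present in the subset sorted as CD115-. Irf4 was at 0.1 to 0.95 FPKM and Zbtb46 at 0.25 to 2.29. The summed level of 15 late neutrophil granule genes was 522.8 and 2086 FPKM in the CD115+Ly6C- libraries, 10340 and 9442 in the CD115+Ly6C+ libraries, and 819.8 and 375.6 in the CD115-Ly6C- libraries. The level of 12 monocyte and macrophage genes was 4332 and 4309 FPKM in CD115+Ly6C+ against 403.6 to 1306 in the other libraries. Ly6c2, which encodes a sorted protein, is 1 of these 12 genes. The level of 12 lymphoid progenitor genes was 2431 and 2222 FPKM in CD115-Ly6C- against 68.83 to 384 elsewhere. The 8 T and NK cell genes found summed to 317.6 and 320.2 FPKM in CD115-Ly6C- and to 42.39 to 124.2 elsewhere, mostly from Nkg7 and Lck, with Cd3e and Cd3g at 0 in both CD115-Ly6C- libraries. Erythroid genes summed to 12.58 to 42.65 FPKM in the 6 libraries, and Epor was at 0 in both CD115+Ly6C- and both CD115-Ly6C- libraries. These marker sums differ between the subsets that are compared below, and their part in the results was not tested. In bulk RNA, fewer cells of a type and less RNA per cell cannot be told apart.

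Transcripts of the pathway spanned a wide range of levels. By mean FPKM over the 6 libraries, the most abundant of the 42 were Map1lc3b at 225.8, Gabarap at 220.3, Tax1bp1 at 204.4, Becn1 at 131.2 and Sqstm1 at 101.0. Each of these lay above at least 90.01% of the 12127 genes tested. The least abundant were Optn at 1.042, Epg5 at 1.648, Atg2a at 1.752 and Wipi1 at 1.97. All 42 passed the filter on low counts, and the lowest count of any of them in a library was 26, for Optn. Replicates of a subset differed by a median of 0.21 in the CD115+Ly6C-, 0.11 in the CD115+Ly6C+ and 0.17 in the CD115-Ly6C- pair (absolute difference of log2 CPM over the 42 genes), against 0.20, 0.21 and 0.18 over all genes tested.

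Differences were largest in number between the CD115-Ly6C- and the CD115+Ly6C+ subset. Of the 42 genes, 14 were higher and 4 were lower in CD115-Ly6C-, which is 42.9% called at an edgeR adjusted p under 0.05, against a background of 39.3% of all genes. The higher genes made up 33.3% of the list against 20.1% of all genes, and the lower genes 9.52% against 19.2%. The median log2 fold change of the 42 was 0.16, beside 0.03 for all genes tested. Between the CD115-Ly6C- and the CD115+Ly6C- subset, 7 genes were higher in CD115-Ly6C- and 0 were lower, or 16.7% against a background of 15.2% (8.43% higher and 6.78% lower), with a median of 0.21 beside 0.02. Between the CD115+Ly6C+ and the CD115+Ly6C- subset, 2 genes were higher and 1 was lower in CD115+Ly6C+, or 7.14% against 9.6% (5.26% higher and 4.34% lower), with a median of -0.10 beside -0.01. In all 3 comparisons the share of these genes that was called therefore lay close to that of all genes. The comparisons share libraries pair by pair, so their counts are not independent of one another. The counts changed when 1 library was left out. Over all genes tested, fewer were called as well in each such fit, which has fewer residual degrees of freedom. In the comparison of CD115-Ly6C- with CD115+Ly6C+, 8 were higher without CD115-Ly6C- replicate 1 and 10 to 13 without any other library, and 2 were lower without CD115+Ly6C+ replicate 2 and 3 to 5 otherwise. In that of CD115-Ly6C- with CD115+Ly6C-, 0 were higher without CD115+Ly6C- replicate 1, 3 without its replicate 2, 1 and 3 without CD115-Ly6C- replicates 1 and 2, and 5 without either CD115+Ly6C+ library. In the remaining comparison, leaving out CD115+Ly6C- replicate 1 gave 0 higher, its replicate 2 gave 1 higher and 0 lower, each CD115+Ly6C+ library gave 0 in both directions, and CD115-Ly6C- replicate 1 gave 2 lower. Library totals in place of TMM scaling moved the median of all genes to 0.22 in the comparison of CD115-Ly6C- with CD115+Ly6C+ and to 0.14 in that with CD115+Ly6C-, and the medians of the 42 genes to 0.35 and 0.33.

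**Figure D1:**
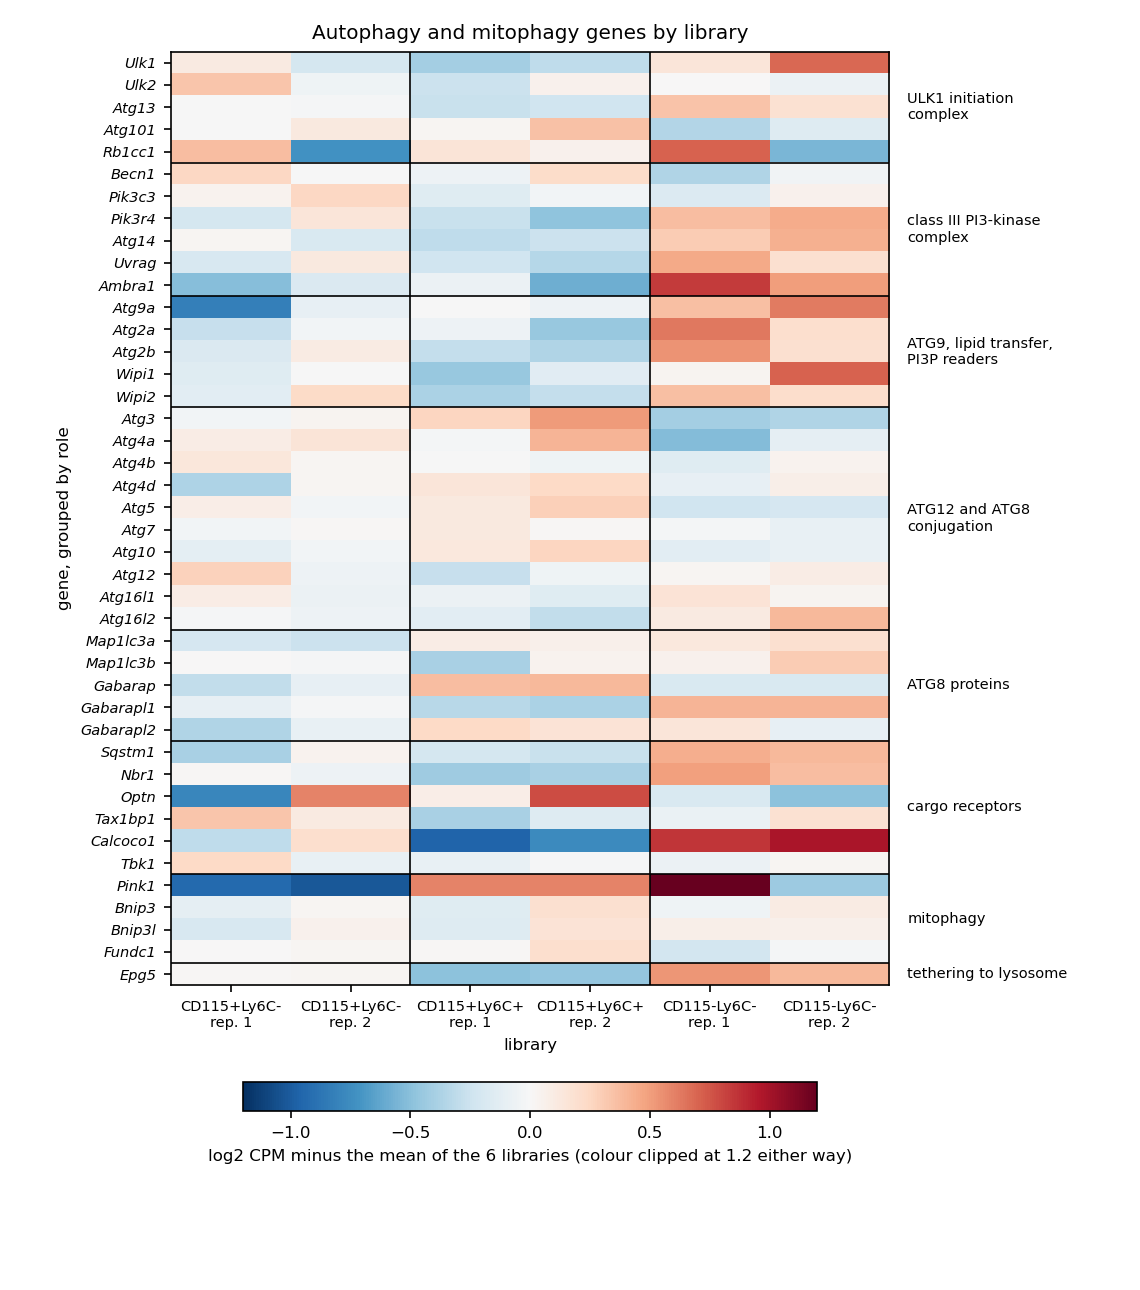
Level of each of the 42 genes (rows, grouped by role) in each of the 6 libraries (columns), as TMM-scaled log2 CPM minus the gene's mean over the libraries. Red is above the mean, blue below, with colours clipped at 1.2 either way. Calcoco1, Nbr1, Gabarapl1 and Epg5 are high in both CD115-Ly6C- libraries and low in both CD115+Ly6C+ libraries, while Rb1cc1 and Pink1 differ between the CD115-Ly6C- libraries.

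**Figure D2:**
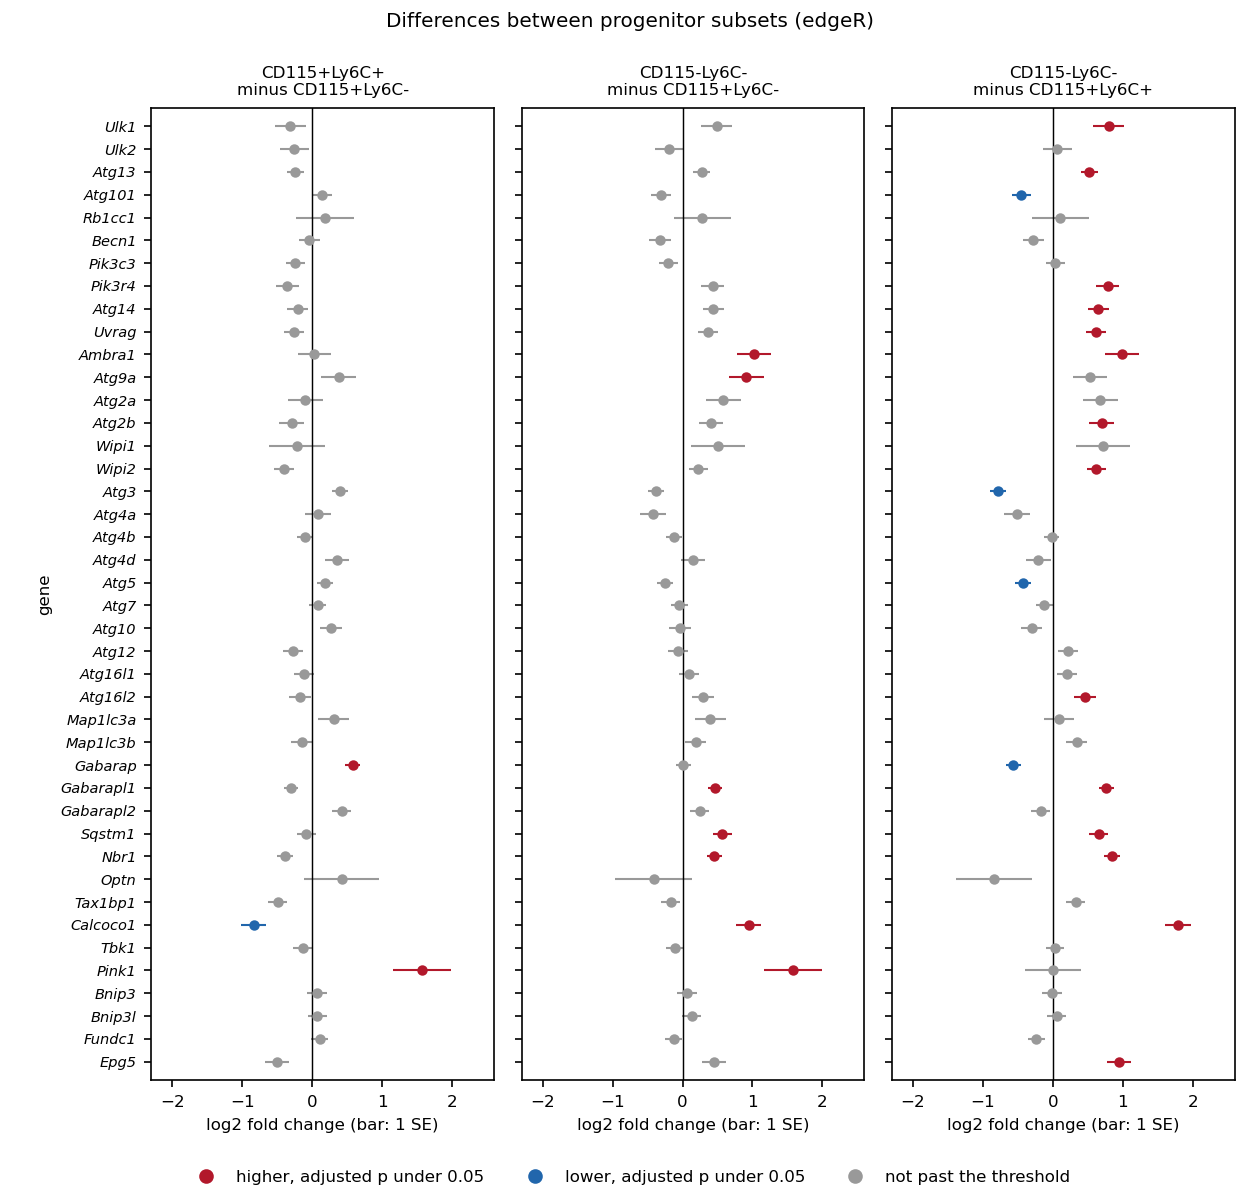
Log2 fold change (x axis, bar of 1 SE) of the 42 genes (y axis) in the 3 comparisons, from the edgeR fit of all 6 libraries. Red and blue points passed the threshold, 14 higher and 4 lower in the panel of CD115-Ly6C- minus CD115+Ly6C+. The 4 blue points there are Atg101, Atg3, Atg5 and Gabarap.

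Shares of a role group are given below beside 20.1% of all genes higher and 19.2% lower in CD115-Ly6C- against CD115+Ly6C+, and the groups are small, so that a single gene moves a share far. In the ULK1 initiation complex, 2 of 5 genes were higher (40.0%) and 1 was lower (20%) in CD115-Ly6C- cells than in CD115+Ly6C+ cells, and none passed in the other comparisons. Ulk1, the kinase, was at 5.48 and 4.62 FPKM in the CD115+Ly6C- libraries, 3.68 and 4.14 in the CD115+Ly6C+ libraries, and 6.2 and 8.56 in the CD115-Ly6C- libraries. Both CD115-Ly6C- libraries lay above the other 4, and the difference from CD115+Ly6C+ was 0.80 ± 0.22 on the log2 scale (SE, edgeR adjusted p = 0.0208). Atg13, the scaffold that tethers the kinase, was at 15.18 and 15.25, 12.26 and 12.25, and 21.46 and 18.68 FPKM in the same order, a log2 difference of 0.52 ± 0.12 (edgeR adjusted p = 0.0103). Atg101, which stabilises ATG13, went the other way. Its levels were 77.29 and 84.97, 76.27 and 93.29, and 67.1 and 74.94 FPKM, a log2 difference of -0.45 ± 0.14 (edgeR adjusted p = 0.0347). The lower CD115+Ly6C+ library lay just above the higher CD115-Ly6C- library, and with library totals as the scale the adjusted p was 0.155. Ulk2, the paralog of Ulk1, ranged from 2.73 to 4.17 FPKM and did not pass in any comparison. Rb1cc1, which encodes the scaffold FIP200, did not pass either, at 9.82 and 4.65, 8.2 and 7.44, and 13.76 and 5.6 FPKM, and its CD115+Ly6C- and CD115-Ly6C- replicates disagreed. Its exons share 558 bases with an antisense gene. The call for Ulk1 was lost without CD115-Ly6C- replicate 2 (adjusted p = 0.152) or CD115+Ly6C+ replicate 1 (0.085) or 2 (0.0679), that for Atg13 without CD115-Ly6C- replicate 1 (0.0803), and that for Atg101 without CD115-Ly6C- replicate 1 (0.191) or 2 (0.0518), CD115+Ly6C+ replicate 2 (0.222) or CD115+Ly6C- replicate 2 (0.0541).

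The class III PI3-kinase group had 4 of 6 genes higher (66.7%) in CD115-Ly6C- cells than in CD115+Ly6C+ cells and none lower. They are a regulatory subunit and accessory proteins, not the catalytic subunit. Pik3r4, the regulatory subunit VPS15, was at 6.11 and 7.94 FPKM in the CD115+Ly6C- libraries, 5.7 and 4.77 in the CD115+Ly6C+ libraries, and 10.18 and 10.43 in the CD115-Ly6C- libraries. The CD115-Ly6C- libraries lay above all others, with a log2 difference of 0.79 ± 0.16 from CD115+Ly6C+ (edgeR adjusted p = 0.00616). Atg14, which directs the complex to autophagosome formation, was at 7.12 and 6.27, 5.5 and 5.53, and 9.6 and 10.16 FPKM (0.65 ± 0.15, edgeR adjusted p = 0.0109). Uvrag, which takes the place of ATG14 in the complex that acts on endosomes, was at 23.58 and 29.52, 22.12 and 20.1, and 40.89 and 33.21 FPKM (0.62 ± 0.14, edgeR adjusted p = 0.0098). Both genes were thus higher in each CD115-Ly6C- library than in any other library. Exons of Uvrag share 1589 of 9035 bases, and those of Atg14 239 of 4322, with antisense genes. Ambra1, an activator of the complex through Beclin 1, was at 2.03 and 2.55, 2.71 and 1.8, and 5.67 and 4.35 FPKM. It was the only gene of the group that also passed against CD115+Ly6C-, with a log2 difference of 1.02 ± 0.24 (edgeR adjusted p = 0.0252), next to 0.99 ± 0.24 against CD115+Ly6C+ (0.0118). Becn1, which encodes Beclin 1, was the most abundant of the group, at 152.6 and 129.04, 118.95 and 141.5, and 110.66 and 134.44 FPKM, and passed in no comparison. Part of its counts was not whole, so reads were split by estimation, and its exons share 3104 bases with Cntd1 on the other strand, so its level is uncertain. Pik3c3, the catalytic subunit VPS34, ranged from 18.88 to 25.97 FPKM and passed in no comparison. Without single libraries the call against CD115+Ly6C+ was lost for Atg14 (CD115-Ly6C- replicate 2, adjusted p = 0.0636), for Uvrag (CD115+Ly6C+ replicate 2, 0.0611, and CD115-Ly6C- replicate 1, 0.0668) and for Ambra1 (the same libraries, 0.0726 and 0.0687). The call of Ambra1 against CD115+Ly6C- was lost without CD115+Ly6C- replicate 1 (0.159) or 2 (0.0608) or CD115-Ly6C- replicate 1 (0.158).

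Among the genes for ATG9, the ATG2 lipid transfer proteins and the PI3P-binding WIPI proteins, 2 of 5 were higher (40.0%) in CD115-Ly6C- cells than in CD115+Ly6C+ cells, 1 was higher (20%, against 8.43% of all genes) in CD115-Ly6C- cells than in CD115+Ly6C- cells, and none was lower. Wipi2, which recruits the conjugation machinery to PI3P, was at 18.14 and 23.44 FPKM in the CD115+Ly6C- libraries, 14.71 and 15.35 in the CD115+Ly6C+ libraries, and 28.27 and 24.7 in the CD115-Ly6C- libraries. In FPKM, all 4 libraries of the 2 CD115+ subsets lay below both CD115-Ly6C- libraries. In TMM-scaled log2 CPM relative to the gene's mean, CD115+Ly6C- replicate 2 (0.23) lay above CD115-Ly6C- replicate 2 (0.21). The log2 difference of CD115-Ly6C- from CD115+Ly6C+ was 0.62 ± 0.14 (edgeR adjusted p = 0.0093). Atg2b was at 2.14 and 2.63, 1.93 and 1.78, and 3.91 and 2.98 FPKM (0.70 ± 0.18, edgeR adjusted p = 0.0146). Atg9a, the transmembrane lipid scramblase on the vesicles that seed the membrane, was at 2.24 and 3.78, 3.84 and 3.61, and 5.68 and 6.62 FPKM, and passed only against CD115+Ly6C- (0.91 ± 0.25, edgeR adjusted p = 0.0416). Atg2a (1.13 to 2.83 FPKM) and Wipi1 (1.29 to 3.31 FPKM) had positive log2 differences of 0.68 and 0.72 against CD115+Ly6C+ that did not pass (edgeR adjusted p = 0.0591 and 0.178). Exons of Atg9a share 1832 bases with a transcript annotated on the same strand, and those of Atg2b share 383 of 13456 with Gskip on the other strand. Each of these calls was lost in at least 1 fit without a library, and such a fit also has fewer residual degrees of freedom. The log2 difference of Wipi2 was 0.55 without CD115-Ly6C- replicate 1. That of Atg9a was 0.91 without CD115+Ly6C+ replicate 1 or 2, which are not part of its comparison. Wipi2 was lost without CD115-Ly6C- replicate 1 (adjusted p = 0.0532), Atg2b without that library (0.104) or CD115+Ly6C+ replicate 2 (0.0732), and Atg9a without CD115+Ly6C- replicate 1 (0.195), CD115-Ly6C- replicate 1 (0.0963) or 2 (0.14) or CD115+Ly6C+ replicate 1 (0.0553) or 2 (0.0543).

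The conjugation genes included both directions, with 2 of 10 lower (20%) and 1 higher (10%) in CD115-Ly6C- cells than in CD115+Ly6C+ cells and none called in the other comparisons. Atg3, the E2-like enzyme that passes ATG8 proteins to phosphatidylethanolamine, was at 78.62 and 83.02 FPKM in the CD115+Ly6C- libraries, 93.33 and 108.37 in the CD115+Ly6C+ libraries, and 67.1 and 67.43 in the CD115-Ly6C- libraries. The 3 subsets did not overlap, and CD115-Ly6C- was lower than CD115+Ly6C+ by a log2 difference of -0.78 ± 0.12 (edgeR adjusted p = 0.00122), a level 1.715-fold higher in CD115+Ly6C+. Neither difference from CD115+Ly6C- passed (0.39 ± 0.12, edgeR adjusted p = 0.0659, and -0.38 ± 0.12, 0.0563). Under some alternatives they did. The DESeq2 test and the fit with no filter called Atg3 higher in CD115+Ly6C+ and lower in CD115-Ly6C- than in CD115+Ly6C-. Atg5, which is joined to ATG12 and then acts as part of the E3-like enzyme, was at 36.06 and 33.82, 35.9 and 39.35, and 32.07 and 32.0 FPKM, a log2 difference of -0.42 ± 0.12 between the CD115-Ly6C- and the CD115+Ly6C+ subset (edgeR adjusted p = 0.0194). With library totals as the scale, the adjusted p for Atg5 was 0.12, and it was 0.118 with CD115+Ly6C+ replicate 2 left out and 0.105 and 0.0738 with CD115-Ly6C- replicate 1 or 2 left out. Atg16l2, a paralog of the Atg16l1 scaffold, was at 12.66 and 12.21, 11.24 and 9.65, and 15.07 and 17.91 FPKM, and its log2 difference of 0.46 ± 0.16 sat at the threshold (edgeR adjusted p = 0.0496). Its adjusted p lay between 0.0534 and 0.285 when any 1 of the 6 libraries was left out. Of the others, Atg12, the ubiquitin-like protein joined to ATG5, was the most abundant, at 45.01 and 36.07, 29.73 and 33.97, and 41.83 and 42.55 FPKM, and the E1-like enzyme Atg7 varied little, from 11.14 to 12.8 FPKM. Atg4a (19.59 to 31.8 FPKM), Atg4b (31.62 to 38.55) and Atg4d (6.9 to 10.12), the proteases that prime and release ATG8 proteins, Atg10 (13.59 to 16.63), the E2-like enzyme for ATG12, and Atg16l1 (8.15 to 11.77) passed in no comparison.

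Atg3 and Atg5 are shown with the 250 bases upstream of the transcript start in the RefSeq promoter table (GRCm38.p6), because they are called lower and hold the letters CACGTG, the core of the E-box that factors of the MiT/TFE family bind. The capitals mark CACGTG, a palindrome that reads alike on both strands. In Atg3 (chr16:45158579-45158828, plus strand) its 2 copies begin 94 and 71 bases before the start, and in Atg5 (chr10:44268089-44268338, plus strand) its copy begins 14 bases before it. Distances are counted from the start in the promoter table. For Atg5 the gene annotation of the same assembly begins earlier, at 44268322, so the marked copy lies just inside the gene as annotated there.
Atg3: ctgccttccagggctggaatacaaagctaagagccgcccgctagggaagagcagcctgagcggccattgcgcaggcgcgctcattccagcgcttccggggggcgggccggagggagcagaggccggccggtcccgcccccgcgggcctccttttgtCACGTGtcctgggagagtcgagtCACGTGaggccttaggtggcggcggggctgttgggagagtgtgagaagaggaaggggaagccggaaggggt
Atg5: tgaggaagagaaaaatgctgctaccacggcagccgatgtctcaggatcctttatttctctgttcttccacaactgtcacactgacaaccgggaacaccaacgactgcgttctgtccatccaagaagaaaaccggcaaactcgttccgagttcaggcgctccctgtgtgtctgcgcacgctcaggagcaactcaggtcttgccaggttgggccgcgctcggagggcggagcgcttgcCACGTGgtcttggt
Promoters of 34 of the 42 genes were in the table, and 4 of them (11.76%) held CACGTG, in Atg3, Atg5, Atg7 and Bnip3, against 6.86% of 27025 genes. Atg7 and Bnip3 passed in no comparison. The longer form TCACGTGA, which contains CACGTG, was in 1 of 34 (Atg3, 2.941%) against 0.9066% of all genes. On either strand, TGACNNNGC, the core of the antioxidant response element, was in 3 (Atg13, Tax1bp1 and Ulk2, 8.824%) against 11.52%, and GTAAACA, a forkhead motif, was in none against 3.537%. A match of letters is a description and not a binding site.

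ATG8 proteins are the tags that are joined to the membrane and bound by cargo receptors. Of their 5 genes, Gabarapl1 was higher and Gabarap lower in CD115-Ly6C- cells than in CD115+Ly6C+ cells, Gabarapl1 was higher than in CD115+Ly6C- cells, and Gabarap was the only one called (higher) in the remaining comparison. Each of these calls is 20% of the group, against 20.1% of all genes higher and 19.2% lower in the first comparison, 8.43% higher in the second and 5.26% higher in the last. Gabarap (chr11:69991370-69994949) was at 174.7 and 202.35 FPKM in the CD115+Ly6C- libraries, 268.46 and 265.08 in the CD115+Ly6C+ libraries, and 208.21 and 202.95 in the CD115-Ly6C- libraries. Both CD115+Ly6C+ libraries lay above the other 4. The log2 difference of CD115+Ly6C+ was 0.58 ± 0.11 against CD115+Ly6C- (edgeR adjusted p = 0.0167), that of CD115-Ly6C- against CD115+Ly6C+ was -0.57 ± 0.11 (0.00396), and CD115-Ly6C- and CD115+Ly6C- differed by 0.01 ± 0.11 (0.966). With the length trend of each library removed, as described below, the first 2 differences of Gabarap were 0.34 (adjusted p = 0.0941) and -0.16 (0.265), and neither was called. Gabarapl1 (chr6:129533192-129542331), its close paralog, was instead lowest in CD115+Ly6C+, at 55.69 and 59.59, 45.67 and 43.12, and 87.49 and 84.9 FPKM. The 3 subsets did not overlap, and CD115-Ly6C- was 1.699-fold higher than CD115+Ly6C+ (0.77 ± 0.10, edgeR adjusted p = 0.000738) and higher than CD115+Ly6C- by 0.46 ± 0.10 (0.0213). Exons of Gabarapl1 share 570 of 2013 bases with 1700101I11Rik on the other strand, so its level and the ratios below are uncertain to that extent. Per length, Gabarap was therefore 5.878 and 6.147 times as abundant as Gabarapl1 in the CD115+Ly6C+ libraries, 3.137 and 3.396 times in the CD115+Ly6C- and 2.38 and 2.39 times in the CD115-Ly6C- libraries. Gabarap made up 45.24% and 42.07% of the summed FPKM of the 5 ATG8 genes in CD115+Ly6C+, against 29.62% to 34.96% in the other libraries. Map1lc3b, which encodes the widely used autophagosome marker LC3B, was at 219.26 and 219.43, 161.54 and 213.07, and 250.87 and 290.6 FPKM and passed in no comparison. Part of its counts was split by estimation. Gabarapl2 (74.12 to 115.6 FPKM) and Map1lc3a (7.72 to 11.29 FPKM) did not pass. The call of Gabarap against CD115+Ly6C- was lost without CD115+Ly6C- replicate 1 (adjusted p = 0.118) or CD115+Ly6C+ replicate 1 (0.0627) or 2 (0.0798). That of Gabarapl1 against CD115+Ly6C- was lost without CD115+Ly6C- replicate 1 (0.131) or 2 (0.0631) or CD115-Ly6C- replicate 1 (0.133) or 2 (0.0785).

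**Figure D3:**
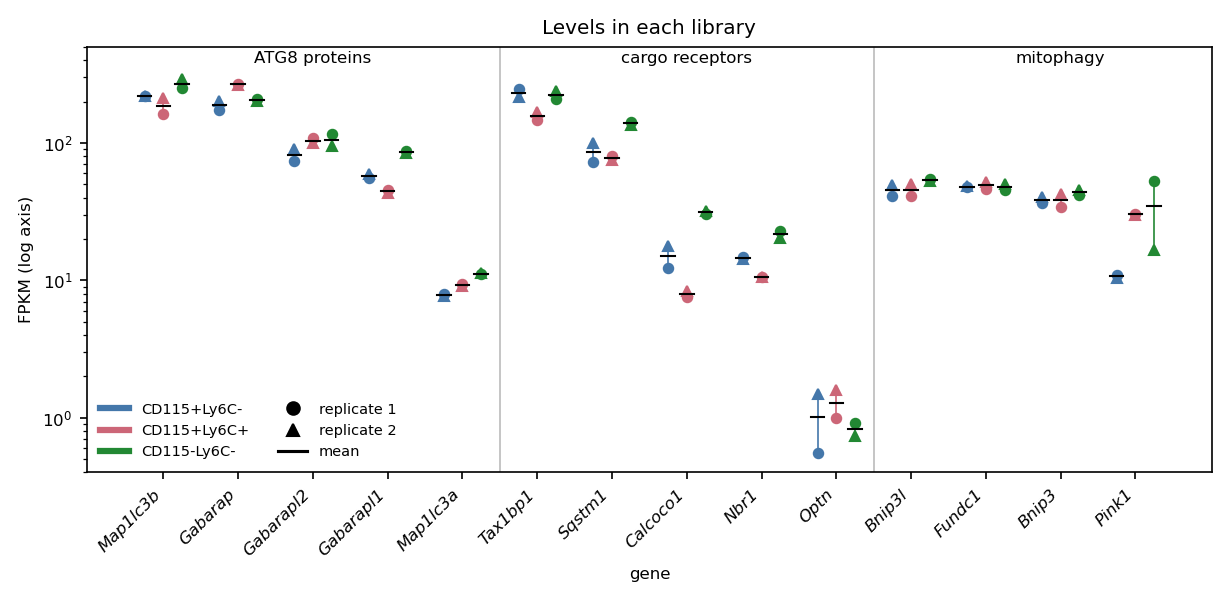
FPKM (log axis) of the ATG8, cargo receptor and mitophagy genes in the 6 libraries, with circles for replicate 1, triangles for replicate 2 and a black bar for the mean of the 2. Gabarap is highest in CD115+Ly6C+ (268.46 and 265.08) and Gabarapl1, Sqstm1, Nbr1 and Calcoco1 in CD115-Ly6C-. Pink1 is at 53.05 in 1 CD115-Ly6C- library and 16.61 in the other.

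Cargo receptors gave the largest difference of the 42 genes between the CD115-Ly6C- and the CD115+Ly6C+ subset. In that comparison 3 of the 6 genes grouped here, which include the kinase Tbk1, were higher in CD115-Ly6C- (Calcoco1, Nbr1 and Sqstm1, 50.0%). Against CD115+Ly6C-, which shares the CD115-Ly6C- libraries, 3 of 6 were higher as well (50.0%, against 8.43% of all genes), and Calcoco1 alone was lower in CD115+Ly6C+ cells than in CD115+Ly6C- cells (16.7% of the group, against 4.34%). Calcoco1 (chr15:102706777-102722178), described as a receptor for autophagy of the endoplasmic reticulum, was at 12.23 and 17.66 FPKM in the CD115+Ly6C- libraries, 7.51 and 8.39 in the CD115+Ly6C+ libraries, and 30.42 and 32.15 in the CD115-Ly6C- libraries. The 3 subsets were fully separated, and Calcoco1 passed in all 3 comparisons, which share libraries pair by pair. CD115-Ly6C- was 3.442-fold above CD115+Ly6C+ (log2 difference 1.78 ± 0.18, edgeR adjusted p = 0.000221) and 1.928-fold above CD115+Ly6C- (0.95 ± 0.18, 0.0117), and CD115+Ly6C+ differed from CD115+Ly6C- by -0.84 ± 0.18 (0.028). Nbr1 (chr11:101552107-101581951), a receptor for ubiquitinated cargo, was at 14.67 and 14.23, 10.6 and 10.61, and 22.9 and 20.44 FPKM. The replicates of Nbr1 agreed closely and the subsets did not overlap, with log2 differences of 0.84 ± 0.11 (CD115-Ly6C- minus CD115+Ly6C+, edgeR adjusted p = 0.000797) and 0.46 ± 0.11 (CD115-Ly6C- minus CD115+Ly6C-, 0.0315). Sqstm1 (chr11:50200152-50210820), which encodes the receptor p62, was at 73.21 and 99.2, 80.07 and 75.09, and 143.24 and 135.32 FPKM. Levels in both CD115-Ly6C- libraries were above the rest, by 0.65 ± 0.14 against CD115+Ly6C+ (edgeR adjusted p = 0.00721) and 0.57 ± 0.14 against CD115+Ly6C- (0.0307). Its exons share 580 bases with Mrnip on the other strand. Tax1bp1, a receptor of the same kind, was the most abundant of the group. It was lowest in CD115+Ly6C+ (248.21 and 215.91, 146.03 and 167.74, and 207.39 and 241.06 FPKM). Its log2 difference of -0.49 ± 0.14 between the CD115+Ly6C+ and the CD115+Ly6C- subset did not pass (edgeR adjusted p = 0.0576). This difference of Tax1bp1 was called with library totals, the DESeq2 test, no filter and only the 2 subsets compared. Limma on log2(FPKM + 1) and on log2(FPKM + 0.1) called it as well. It was not called with DESeq2 size factors, the replicate block, the length trend removed or limma on every listed gene. Fits without a library are left aside here. Tbk1, the kinase that phosphorylates receptors (33.29 to 43.26 FPKM), and Optn, a receptor used in mitophagy (0.55 to 1.58 FPKM), did not pass in any comparison. The calls of Calcoco1, Nbr1 and Sqstm1 against CD115+Ly6C+ held without any 1 library. Against CD115+Ly6C-, Calcoco1 was lost without CD115+Ly6C- replicate 1 (adjusted p = 0.0718), Sqstm1 without CD115+Ly6C- replicate 1 (0.153) or CD115-Ly6C- replicate 1 (0.141) or 2 (0.0744), and Nbr1 without any 1 of the 4 libraries compared (0.0701 to 0.221). The lower level of Calcoco1 in CD115+Ly6C+ than in CD115+Ly6C- was lost without CD115+Ly6C- replicate 2 (0.106) or CD115+Ly6C+ replicate 1 (0.118) or 2 (0.0829).

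Of the 4 mitophagy genes, Pink1 alone passed in any comparison, which is 25% of the group in each of the comparisons with CD115+Ly6C-, against 5.26% of all genes higher in CD115+Ly6C+ and 8.43% higher in CD115-Ly6C-. Pink1 (chr4:138313409-138326296) encodes the kinase that gathers on damaged mitochondria and recruits Parkin. It was at 10.92 and 10.42 FPKM in the CD115+Ly6C- libraries, 30.56 and 29.84 in the CD115+Ly6C+ libraries, and 53.05 and 16.61 in the CD115-Ly6C- libraries. Both CD115+Ly6C- libraries lay below the other 4, by 1.57 ± 0.42 on the log2 scale against CD115+Ly6C+ (edgeR adjusted p = 0.0497) and 1.58 ± 0.42 against CD115-Ly6C- (0.0381). The CD115-Ly6C- replicates differed by 1.63 (log2 CPM), the widest gap of the 42 genes in that subset, with 1 above and 1 below both CD115+Ly6C+ libraries. The comparison of those 2 subsets gave 0.00 ± 0.40 (0.996). Without CD115-Ly6C- replicate 2 it gave 0.60 (adjusted p = 0.0232), and without replicate 1 it gave -1.03 (0.00347), so the direction there followed the library left out. In CD115+Ly6C+ against CD115+Ly6C-, whose replicates of Pink1 lay close together, leaving out a CD115-Ly6C- library gave 1.57 in each case (adjusted p = 0.000333 without replicate 1 and 0.000501 without replicate 2). Leaving out a library of the pair itself lost the call (0.127 to 0.22), as did a DESeq2 test (0.0713). For CD115-Ly6C- against CD115+Ly6C-, the difference was 0.54 without CD115-Ly6C- replicate 1 (0.135) and 2.17 without replicate 2 (0.000355). Its adjusted p was 0.18 and 0.148 with CD115+Ly6C- replicate 1 or 2 left out, and 0.0506 and 0.0502 with CD115+Ly6C+ replicate 1 or 2 left out. The call was also lost with the DESeq2 test (0.0613) and with limma (0.0587, 0.0585 and 0.164 in 3 fits). Of 16 alternatives, 7 kept this call of Pink1 and 6 kept that of CD115+Ly6C+ against CD115+Ly6C-. Bnip3 (34.3 to 45.31 FPKM), Bnip3l (41.4 and 49.6, 41.03 and 49.9, and 55.0 and 53.23 FPKM) and Fundc1 (45.12 to 51.75 FPKM), receptors in the outer mitochondrial membrane, passed in no comparison, with the largest log2 difference -0.23 ± 0.12, for Fundc1 between the CD115-Ly6C- and the CD115+Ly6C+ subset (edgeR adjusted p = 0.144).

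Epg5 (chr18:77938409-78037325), which tethers autophagosomes to late endosomes and lysosomes, was at 1.55 and 1.58 FPKM in the CD115+Ly6C- libraries, 1.06 and 1.05 in the CD115+Ly6C+ libraries, and 2.47 and 2.18 in the CD115-Ly6C- libraries. The subsets did not overlap. CD115-Ly6C- was 1.931-fold above CD115+Ly6C+ (log2 difference 0.95 ± 0.17, edgeR adjusted p = 0.00331), while the differences of both from CD115+Ly6C- did not pass (0.45 ± 0.17, 0.11, and -0.50 ± 0.17, 0.102).

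Transcript length moved with the differences. Across the 42 genes, the log2 difference between the CD115-Ly6C- and the CD115+Ly6C+ subset had a Spearman rho of 0.53 with transcript length, and across all 12127 genes a rho of 0.33. The median log2 difference was -0.09 in the 14 shortest genes (up to 2202 nt) and 0.67 in the 14 longest (3466 nt and above). For CD115+Ly6C+ against CD115+Ly6C- the rho was -0.47 over the 42 genes and -0.33 over all, and for CD115-Ly6C- against CD115+Ly6C- it was 0.29 and 0.18. All points of a comparison come from the same libraries, and genes are not independent replicates. With the length trend of each library removed, 13 of the 42 were higher and 2 lower in CD115-Ly6C- cells than in CD115+Ly6C+ cells. Of all 12127 genes, 1984 were higher and 1869 lower there. Against CD115+Ly6C- cells, 5 of the 42 were higher and 0 lower in CD115-Ly6C- cells, beside 913 and 736 of all genes. In CD115+Ly6C+ cells against CD115+Ly6C- cells, 0 were higher and 1 lower, beside 393 and 322. Calls over all genes were fewer than before that removal (3853, 1649 and 715 against 4768, 1844 and 1164). The short genes Gabarap (1122 nt) and Atg101 (1230 nt) were then no longer called between the CD115-Ly6C- and the CD115+Ly6C+ subset (adjusted p = 0.265 and 0.627), nor were the long Atg2b (10188 nt, 0.184) and Ulk1 (3595 nt, 0.0559). Map1lc3b was newly called higher in that comparison. Gabarap (0.0941) and Pink1 (0.0662) were no longer called in CD115+Ly6C+ against CD115+Ly6C-, and Nbr1 (0.0633) and Atg9a (0.0589) no longer in CD115-Ly6C- against CD115+Ly6C-. In the comparison of CD115-Ly6C- with CD115+Ly6C+, the calls of Calcoco1, Nbr1, Gabarapl1, Sqstm1, Pik3r4, Atg3 and Epg5 were among those that remained.

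**Figure D4:**
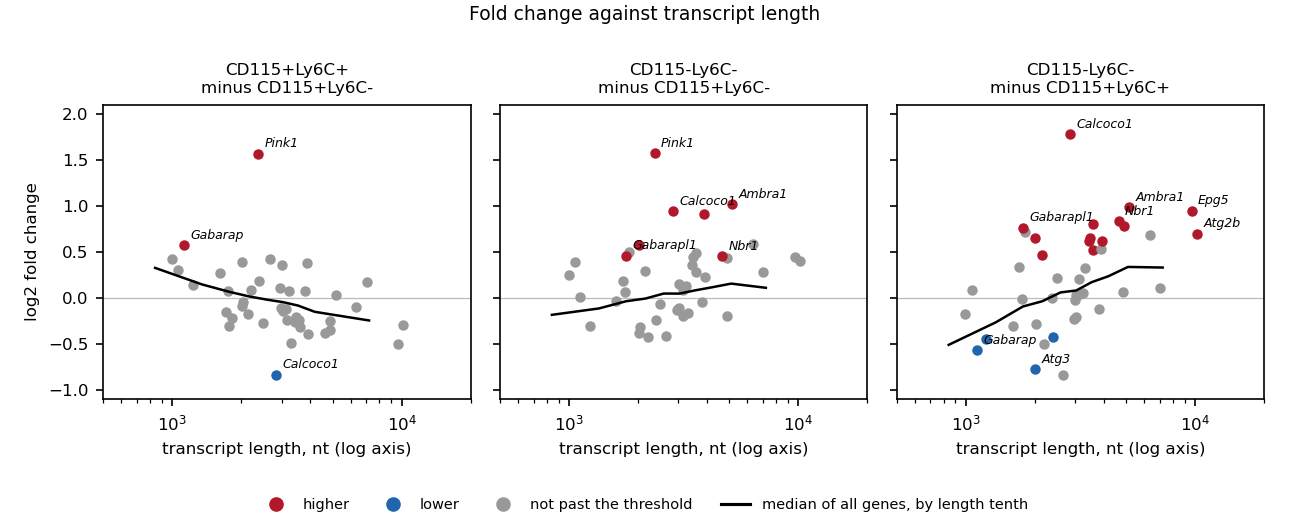
Log2 fold change (y axis) of the 42 genes against transcript length (x axis, nucleotides, log scale) in the 3 comparisons, with red and blue for genes called higher and lower. The black line joins the medians of all genes tested in 10 bins of length. It rises with length in the right panel, as the points of the 42 genes do (rho 0.53 over the 42 and 0.33 over all genes).

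Other genes of the pathway were covered by 6 lists with 117 symbols, of which 114 were tested. Between the CD115-Ly6C- and the CD115+Ly6C+ subset, 21 were higher and 23 lower in CD115-Ly6C- (18.4% and 20.2%), close to the background in both directions, with a median log2 difference of 0.06. Against CD115+Ly6C-, 9 were higher and 5 lower in CD115-Ly6C- (7.89% and 4.39%, against 8.43% and 6.78% of all genes), and 4 were higher and 4 lower in CD115+Ly6C+ (3.51% each way, against 5.26% and 4.34%). These shares lay below those of all genes.

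Among 25 tested genes of mTORC1, the kinase complex that holds ULK1 in check when amino acids are plentiful, 4 were higher (16.0%, against 20.1% of all genes) and 7 lower (28.0%, against 19.2%) in CD115-Ly6C- cells than in CD115+Ly6C+ cells. Lamtor4, a subunit of the Ragulator complex that anchors mTORC1 to the lysosome, was at 93.41 and 105.02 FPKM in the CD115+Ly6C- libraries, 157.26 and 150.96 in the CD115+Ly6C+ libraries, and 83.56 and 82.06 in the CD115-Ly6C- libraries (log2 difference -1.09 ± 0.11, edgeR adjusted p = 0.000209). Lamtor1 (-0.75 ± 0.10, 0.000682) and Lamtor5 (-0.74 ± 0.12, 0.00154), of the same complex, had the same direction. Sesn1, a sestrin that restrains mTORC1, was at 50.93 and 51.7, 32.24 and 36.35, and 103.31 and 86.71 FPKM, with CD115-Ly6C- highest (1.27 ± 0.12 against CD115+Ly6C+, edgeR adjusted p = 0.00013). The 6 tested genes of AMPK, the energy-sensing kinase that activates ULK1, and its upstream kinase Stk11 gave 1 higher, or 16.7% (Prkaa1, 0.38 ± 0.13, edgeR adjusted p = 0.0408) and 2 lower, or 33.3% (Prkag1, -0.70 ± 0.11, 0.00179, and Stk11, -0.68 ± 0.21, 0.031) in the same comparison.

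The list of 11 genes for transcription factors that act on autophagy genes held, among others, Tfeb, Tfe3, Mitf and Foxo3. The share called was 9.09% in CD115+Ly6C+ against CD115+Ly6C-, beside 9.6% of all genes. It was 9.09% in CD115-Ly6C- against CD115+Ly6C+, beside 39.3%, and 0% in CD115-Ly6C- against CD115+Ly6C-, beside 15.2%. Tfec alone was called in any comparison. It was at 3.45 and 5.42 FPKM in the CD115+Ly6C- libraries, 15.35 and 19.17 in the CD115+Ly6C+ libraries, and 2.73 and 2.56 in the CD115-Ly6C- libraries. CD115+Ly6C+ stood above the other subsets, by 2.06 ± 0.25 against CD115+Ly6C- (edgeR adjusted p = 0.00277), and CD115-Ly6C- differed from it by -2.93 ± 0.26 (0.00011). The CD115+Ly6C+ libraries are also those with the highest neutrophil and monocyte marker sums given above, whose part in the level of Tfec was not tested.

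Among 30 other core and regulatory genes, 9 were higher (30.0%, against 20.1% of all genes) and 5 lower (16.7%, against 19.2%) in CD115-Ly6C- cells than in CD115+Ly6C+ cells. Trp53inp1, a p53 target that binds ATG8 proteins, was at 3.55 and 4.99, 2.62 and 2.91, and 15.8 and 15.59 FPKM (2.31 ± 0.18, edgeR adjusted p = 5.59e-05). Tecpr1 was at 3.33 and 2.68, 2.03 and 2.05, and 7.05 and 6.71 FPKM (1.56 ± 0.18, edgeR adjusted p = 0.000342). Of 16 genes for fusion with the lysosome, 3 were higher and 3 lower (18.8% each way, close to the background), among them the HOPS tethering subunit Vps39 (0.93 ± 0.13, edgeR adjusted p = 0.000847) and the SNAREs Stx7 (-0.94 ± 0.11, 0.000413) and Vamp8 (-0.72 ± 0.14, 0.00491). Of 26 tested genes for other mitophagy proteins and receptors for the endoplasmic reticulum, iron stores or glycogen, 4 were higher and 5 lower (15.4% and 19.2%). Retreg1, a receptor for autophagy of the endoplasmic reticulum like Calcoco1, had the same order of subsets, at 13.58 and 10.67, 6.0 and 4.88, and 31.55 and 30.46 FPKM (2.29 ± 0.17, edgeR adjusted p = 4.37e-05). Stbd1, which binds glycogen, had the opposite order, at 1.71 and 3.79, 8.13 and 9.34, and 1.12 and 1.11 FPKM (-3.16 ± 0.39, edgeR adjusted p = 0.000466).

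Bnip3 and Bnip3l are known targets of the hypoxia-inducible factor HIF, and 17 other HIF target genes were tested as a list. Between the CD115-Ly6C- and the CD115+Ly6C+ subset, 5 of these were higher (29.4%, against 20.1% of all genes) and 6 lower (35.3%, against 19.2%), with a median log2 difference of 0.33 beside 0.03 for all genes tested. Pdk1 was higher in CD115-Ly6C- (1.02 ± 0.13, edgeR adjusted p = 0.000619) and Pgk1 was lower (-0.72 ± 0.10, 0.00095), while Bnip3 (-0.01 ± 0.15, 0.972) and Bnip3l (0.06 ± 0.14, 0.768) did not pass.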

How the data were processed

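Per the submitters' processing notes, the authors used Bowtie2, RSEM and mm10, and no version, setting or strandedness is stated. Per the file headers, the deposited tables hold RSEM expected counts, which are estimated (12.6% of those above 0 were not whole, tolerance 1e-06), FPKM and transcript length. A gene missing from a table was taken as 0. Expected counts were rounded and entered edgeR 4.0.16 (R 4.3.3, quasi-likelihood) with filterByExpr (minimum count 10, minimum total count 15, leaving 12127 genes), TMM factors of 0.9301 to 1.091, and all 6 libraries in 1 fit with a coefficient per subset. P-values were adjusted by the Benjamini-Hochberg method across every gene tested, with a threshold of 0.05. In parentheses, a bare value after a log2 difference or a library left out is that adjusted p. The SE is the log2 fold change over the square root of F. The common dispersion was 0.0231, with 3 residual and 5.6 prior degrees of freedom, so the number of libraries limits precision. The script was tested on simulated data. Gene positions, counted from 1, come from RefSeq GRCm38.p6, the assembly of mm10 (15332 of 15357 Entrez identifiers matched), and shared exons from GENCODE. Without known strandedness, reads in exons shared with an antisense gene cannot be told apart.

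The 42 genes and the other lists were chosen with earlier results of these data known. Each of the 42 called in any comparison is given by its values in all 6 libraries. So are Rb1cc1, Becn1, Atg12, Map1lc3b, Tax1bp1 and Bnip3l, chosen after their values were seen, and the others are given by range. From each further list, genes were named from the 4 called ones with the smallest adjusted p. Alternatives were DESeq2 size factors, library totals, the test of DESeq2 1.42.0, no filter, only the 2 subsets compared, leaving out each library (a lone library was assumed to vary like the other subsets), the replicate number as a block, the length trend removed through offsets (loess, span 0.5), and limma 3.58.1 on log2(FPKM + 1) and log2(FPKM + 0.1).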

Additional observations from a re-analysis of the deposited data

How the results depend on the processing

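Of 28 single-gene calls, none changed direction under the 16 alternatives, and 7 were kept under all of them: Pik3r4, Atg3, Gabarapl1, Sqstm1, Nbr1, Calcoco1 and Epg5 between CD115-Ly6C- and CD115+Ly6C+. That comparison also had the most calls over all genes (39.3%, against 15.2% and 9.6% in the others). The share of all called genes kept under every alternative was not computed. Counts of the 42 genes moved as follows, and the cause was not tested unless stated.

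For CD115+Ly6C+ minus CD115+Ly6C- (2 higher, 1 lower, median log2 fold change -0.10), library totals gave 1 higher, 3 lower and -0.17, limma on log2(FPKM + 1) 1, 3 and -0.15, limma on log2(FPKM + 0.1) 1, 3 and -0.17, and limma with every listed gene 0, 0 and -0.15. The DESeq2 test gave 3 lower, no filter 2 lower, the 4 libraries alone 2 lower, and removal of the length trend 0 higher. Leaving out 1 library gave 0 to 2 higher, 0 to 2 lower and medians of -0.14 to -0.08. For CD115-Ly6C- minus CD115+Ly6C- (7 higher, 0 lower, 0.21), the median was 0.33 with library totals, 0.32 with log2(FPKM + 1) and 0.33 with log2(FPKM + 0.1). Limma with every listed gene gave 3 higher and 0.32, and the DESeq2 test, no filter and the 4 libraries alone gave 1 lower each. Leaving out 1 library gave 0 to 5 higher, 0 to 1 lower and 0.13 to 0.26. For CD115-Ly6C- minus CD115+Ly6C+ (14 higher, 4 lower, 0.16), library totals gave 2 lower and 0.35, log2(FPKM + 1) 2 and 0.31, log2(FPKM + 0.1) 2 and 0.34, limma with every listed gene 2 and 0.31, and removal of the length trend 2 lower. Leaving out 1 library gave 8 to 13 higher, 2 to 5 lower and 0.12 to 0.23.

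The labels state no pairing, and replicate differences over all genes correlated between subsets at -0.004, -0.01 and 0.15 (0.12, 0.14 and 0.34 over the 42), so the numbers were not taken as pairs. With the replicate number as a block, 2 were higher and 1 lower (CD115+Ly6C+ minus CD115+Ly6C-), 7 and 0 (CD115-Ly6C- minus CD115+Ly6C-), and 13 and 5 (CD115-Ly6C- minus CD115+Ly6C+, where Atg16l2 was lost at an adjusted p of 0.0713 and Atg4a gained).

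Scaling also moved the balance of all genes: the share of calls that were higher was 54.8%, 55.4% and 51.1% with TMM in these comparisons, 38.4%, 74.3% and 69.8% with library totals, and 50.8%, 72.7% and 67.1% with log2(FPKM + 1). Over all genes, 1164, 1844 and 4768 were called, and 1812 and 2430 with the DESeq2 test and 1810 and 2496 with no filter in the first 2 comparisons, without a library as few as 220, 485 and 2983. With limma on every listed gene, 415 were called in CD115+Ly6C+ minus CD115+Ly6C-, and 715 with the length trend removed. With 2 libraries a subset, small differences cannot be told from replicate spread.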
